A study of Rattus norvegicus with 8 samples.

Results

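Kupffer cells are the resident macrophages of the liver. They line the sinusoids, the capillaries between plates of hepatocytes, and clear bacteria, aged blood cells, immune complexes and free haemoglobin from portal blood. Their marker genes encode surface receptors for these particles, proteins of the complement system, lysosomal and secreted antibacterial proteins, and the growth factor receptor on which macrophages depend. The marker set described here held 10 genes, chosen by name with earlier results of these data known: Lyz2, C1qa, C1qb, C1qc, Clec4f, Cd163, Marco, Vsig4, Csf1r and Cd68. Each had 1 probe set annotated to a single symbol, so all 10 were measured, among 14506 named genes in all.

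RNA of homogenised liver was hybridised to 8 Affymetrix arrays. The livers were those of male Wistar rats aged 6 to 10 weeks. For 4 arrays the liver had been perfused with hypoosmotic (225 mosm/L) and for 4 with normoosmotic (305 mosm/L) Krebs-Henseleit buffer, a salt solution buffered by bicarbonate, and all belong to the 180 min time point. In dilute buffer liver cells take up water and swell. Whether each array stands for its own animal is not given in the labels. The p-values therefore reflect only how far these samples spread, which may be technical variation. The number of arrays limits the precision.

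All values below are log2 intensities as deposited, and each change is a difference of means, hypoosmotic minus normoosmotic. The 10 markers were all well above 3.07, the 95th percentile of the mean level of 1105 odorant receptor genes, below which a gene was called near background. Array medians over all probe sets lay between 3.92 and 4.05, and hypoosmotic replicate 3 stood apart on the second principal component, at 28.4 against -15.3 to 6.53 for the other 7 arrays. Hepatocyte genes such as Alb and Apoa1 had the bright signals of liver, with 0 of 13 measured near background. In whole liver, fewer cells of a type and less RNA per cell cannot be told apart.

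The 250 bases before the transcription start are shown for Lyz2, the marker that changed, and for Clec4f, C1qa and C1qb, which varied together between arrays. They come from RefSeq, build GRCr8, and are written 5′ to 3′ on the strand of the gene, the minus strand for all of them. The regions are chr7:54798012-54798261 for Lyz2, chr4:117696408-117696657 for Clec4f, chr5:154419934-154420183 for C1qa and chr5:154407828-154408077 for C1qb. Capitals mark the letters GAGGAA on either strand, a core that the macrophage transcription factor PU.1, the product of Spi1, can bind.
Lyz2: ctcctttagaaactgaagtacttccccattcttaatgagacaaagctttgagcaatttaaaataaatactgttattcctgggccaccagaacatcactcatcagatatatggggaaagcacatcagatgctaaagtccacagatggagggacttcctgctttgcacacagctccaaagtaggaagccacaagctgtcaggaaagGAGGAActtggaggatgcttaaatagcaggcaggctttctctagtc
Clec4f: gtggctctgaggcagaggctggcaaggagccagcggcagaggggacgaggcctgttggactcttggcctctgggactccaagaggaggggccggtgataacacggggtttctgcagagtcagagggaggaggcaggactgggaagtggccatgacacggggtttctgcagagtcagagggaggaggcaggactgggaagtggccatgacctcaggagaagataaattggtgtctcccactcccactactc
C1qa: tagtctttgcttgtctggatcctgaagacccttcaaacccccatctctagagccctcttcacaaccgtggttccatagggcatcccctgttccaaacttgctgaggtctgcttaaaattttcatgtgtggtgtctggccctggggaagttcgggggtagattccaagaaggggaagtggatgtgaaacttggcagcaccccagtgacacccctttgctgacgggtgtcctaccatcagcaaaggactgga
C1qb: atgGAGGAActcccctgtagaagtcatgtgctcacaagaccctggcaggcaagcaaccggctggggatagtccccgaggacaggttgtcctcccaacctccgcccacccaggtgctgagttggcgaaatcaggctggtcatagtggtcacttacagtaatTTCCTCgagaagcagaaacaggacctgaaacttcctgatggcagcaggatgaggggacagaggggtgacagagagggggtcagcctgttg
In Lyz2 the letters stood at positions -46 to -41 from the start, and in C1qb at -247 to -242 and, on the other strand, at -90 to -85. Of the 9 markers with an entry, 5 held GAGGAA in this window (Lyz2, C1qb, Marco, Cd68 and Csf1r), against 23.3% of 33469 rat promoters. The AP-1 letters TGANTCA were found in 1 of the 9, Cd68, against 6.34% of promoters, and the E-box letters CACGTG in 0 of the 9, against 5.59%. Both strands were searched, and no match overlapped one of another motif. These are matches of letters only and show no binding. C1qc had no entry.

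Of the 10 markers, 1 rose in hypoosmotic livers and 0 fell (limma, Benjamini-Hochberg adjusted p under 0.05 over all genes). Over all genes tested, 2.45% were higher and 4.61% lower by the same rule. Since the set was chosen with earlier results known, its count cannot be weighed against these shares. The marker that rose was Lyz2, which encodes lysozyme, a secreted enzyme that cuts bacterial cell walls. The markers had a median change of 0.31, against 0.02 for all genes, and 7 of the 10 changes were above 0. No claim about the set follows from this median, since the other 9 did not pass singly.

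Lyz2 read 6.36, 6.49, 6.68 and 6.73 in hypoosmotic replicates 1 to 4, against 5.36, 5.96, 5.57 and 5.42 in normoosmotic replicates 1 to 4. Every hypoosmotic array thus lay above every normoosmotic one, which was true of 5.32% of all genes, while 8.2% of all genes and 0 of the 10 markers lay wholly lower. The means were 6.57 ± 0.17 in hypoosmotic and 5.58 ± 0.27 in normoosmotic livers (SD, n = 4 each), a 1.98-fold difference. On the log2 scale this is a change of 0.99 (95% interval 0.67 to 1.31, limma adjusted p = 0.00512). It passed with each array left out in turn (adjusted p 0.00672 to 0.0199), at 0.95 without hypoosmotic replicate 3, and also against a minimum fold change of 1.2 (adjusted p = 0.0402).

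Lysozyme is also made by neutrophils and monocytes. Of 11 neutrophil genes 0 passed, and 9 of them, S100a8, S100a9, Mpo and Elane included, were near background. The summed linear signal of these genes ranged from 85.0 to 115 over hypoosmotic and from 100.3 to 117 over normoosmotic arrays. With most of the genes near background, these sums say little about neutrophils. Of 6 measured monocyte genes 0 passed and 1, Vcan, was near background, while Cx3cr1 and Ace lay close to that level. All 6 changes were above 0, with a median of 0.18. The sums were 84.2 to 177 over hypoosmotic and 81.1 to 105 over normoosmotic arrays. The part of neutrophils or of monocytes in the Lyz2 result was not tested.

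**Figure D1:**
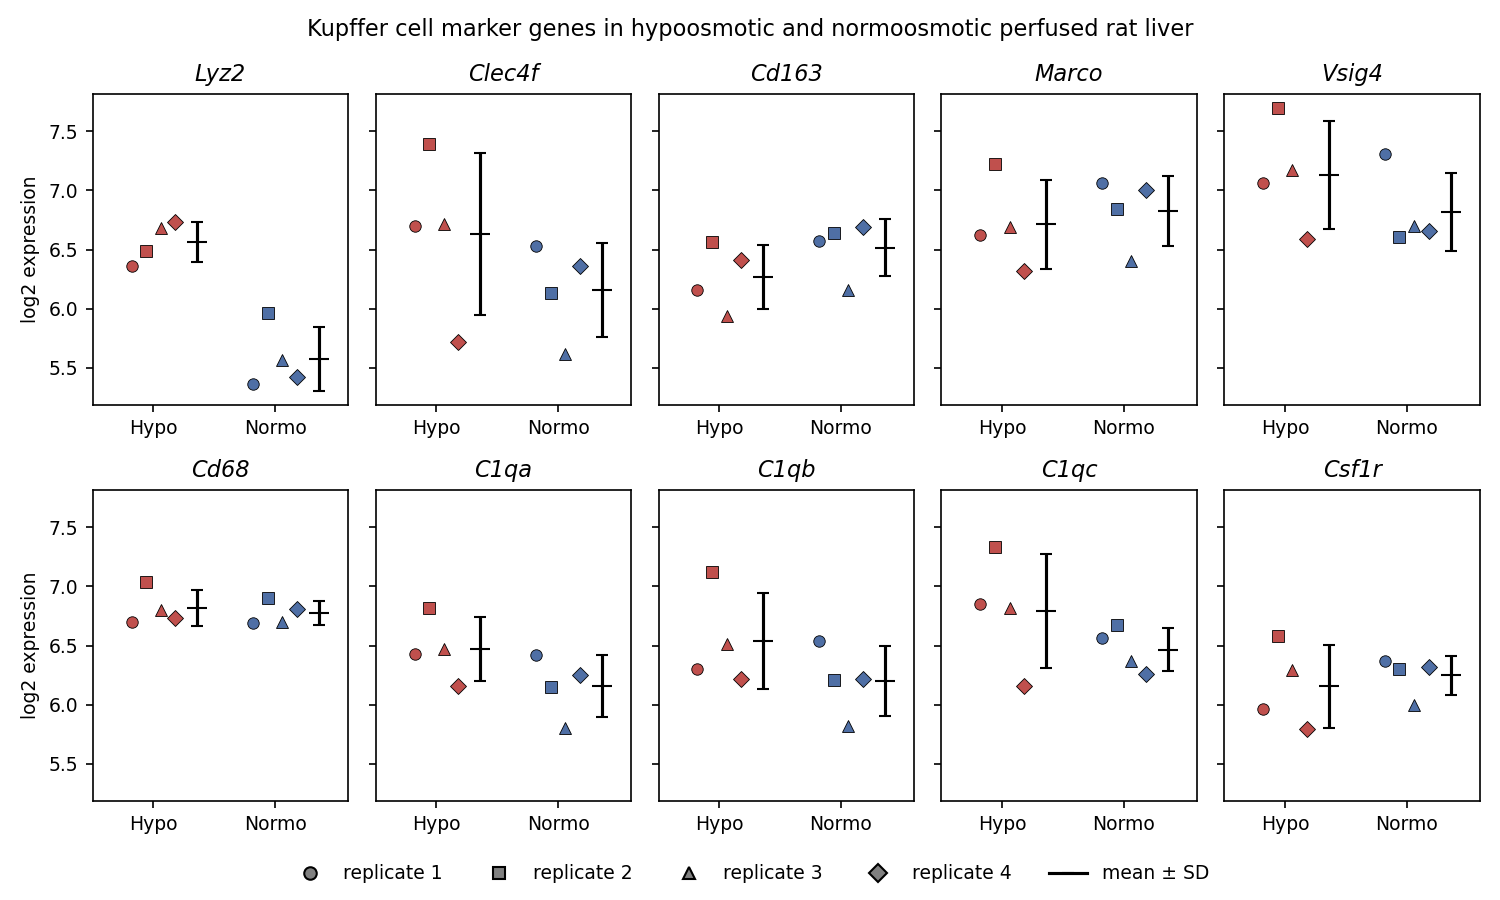
Deposited log2 expression of the 10 Kupffer cell marker genes on each array, with hypoosmotic arrays left (red) and normoosmotic arrays right (blue); the marker shape gives the replicate number and the bar the group mean ± SD (n = 4). The groups are apart for Lyz2 and overlap for the other 9 genes, and hypoosmotic replicate 2 (square) is the highest hypoosmotic array for each of those 9.

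C1qa, C1qb and C1qc encode the chains of C1q, which binds antibody complexes and starts the classical complement pathway. The genes lie next to each other in the RefSeq annotation, in the order C1qb, C1qc, C1qa, and liver macrophages are a main source of C1q. C1qa was 6.43, 6.82, 6.47 and 6.16 in hypoosmotic replicates 1 to 4, against 6.42, 6.15, 5.80 and 6.25 in normoosmotic replicates 1 to 4. C1qb was 6.30, 7.12, 6.51 and 6.22 in the hypoosmotic arrays, against 6.54, 6.21, 5.82 and 6.22 in the normoosmotic ones. For C1qc the values were 6.85, 7.33, 6.82 and 6.16 in the hypoosmotic arrays, against 6.56, 6.67, 6.37 and 6.26 in the normoosmotic ones. All 3 genes were highest on hypoosmotic replicate 2, and the groups overlapped for each.

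The changes of the chains were close in size, 0.31 for C1qa (95% interval -0.04 to 0.67), 0.34 for C1qb (-0.11 to 0.79) and 0.32 for C1qc (-0.13 to 0.78), and none passed (limma, adjusted p 0.316, 0.402 and 0.442). Without hypoosmotic replicate 4 C1qc differed by 0.54 (adjusted p = 0.0710), and without hypoosmotic replicate 2 it was 0.15.

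Of the surface receptors, Clec4f, a lectin that binds galactose and is found on rodent Kupffer cells, had the widest spread. It read 6.70, 7.39, 6.72 and 5.72 in hypoosmotic replicates 1 to 4, against 6.53, 6.13, 5.62 and 6.36 in normoosmotic replicates 1 to 4. The highest and lowest hypoosmotic arrays were 1.67 apart, and the groups overlapped. Its change was 0.47 (95% interval -0.20 to 1.14, limma adjusted p = 0.445), which became 0.78 without hypoosmotic replicate 4 (adjusted p = 0.0776) and 0.22 without hypoosmotic replicate 2 (0.755).

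Vsig4 encodes the complement receptor CRIg, which lets Kupffer cells take up particles coated with complement fragments. Hypoosmotic replicates 1 to 4 had 7.06, 7.70, 7.17 and 6.59, and normoosmotic replicates 1 to 4 had 7.31, 6.61, 6.70 and 6.66. Normoosmotic replicate 1 lay within the hypoosmotic range, above the other normoosmotic arrays, and the groups overlapped. The change of 0.31 did not pass (95% interval -0.18 to 0.80, adjusted p = 0.512, limma).

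Cd163, the receptor for complexes of haptoglobin and haemoglobin and the ED2 antigen of rat macrophages, had the lowest change of the 10 markers. It read 6.16, 6.56, 5.94 and 6.41 in hypoosmotic replicates 1 to 4, against 6.57, 6.64, 6.16 and 6.69 in normoosmotic replicates 1 to 4. Apart from normoosmotic replicate 3, every normoosmotic array lay above all hypoosmotic ones. The change was -0.25 (95% interval -0.60 to 0.10, limma adjusted p = 0.446).

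Marco, a scavenger receptor for bacteria, averaged 6.71 ± 0.37 in hypoosmotic and 6.82 ± 0.30 in normoosmotic livers (SD, n = 4 each). Its hypoosmotic arrays spanned 6.32 to 7.22 and its normoosmotic arrays 6.40 to 7.06, so one range enclosed the other. The change was -0.11 (95% interval -0.54 to 0.32, adjusted p = 0.829, limma), and 0.018 without hypoosmotic replicate 4. Csf1r, the receptor for the growth factors CSF1 and IL-34, spanned 5.79 to 6.58 over hypoosmotic and 6.00 to 6.37 over normoosmotic arrays. Its change was -0.09 (95% interval -0.46 to 0.27, adjusted p = 0.837, limma), and 0.029 without hypoosmotic replicate 4.

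Cd68, a glycoprotein of macrophage lysosomes, was the steadiest marker. It read 6.70, 7.04, 6.80 and 6.73 in hypoosmotic replicates 1 to 4, against 6.69, 6.90, 6.70 and 6.81 in normoosmotic replicates 1 to 4. The change was 0.04, with the narrowest interval of the 10 markers, -0.20 to 0.28 (adjusted p = 0.890, limma). The change of Lyz2, 0.99, lies above this interval, and above that of each other marker except Clec4f. Whether the change of Lyz2 differed from that of another marker was not tested.

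**Figure D2:**
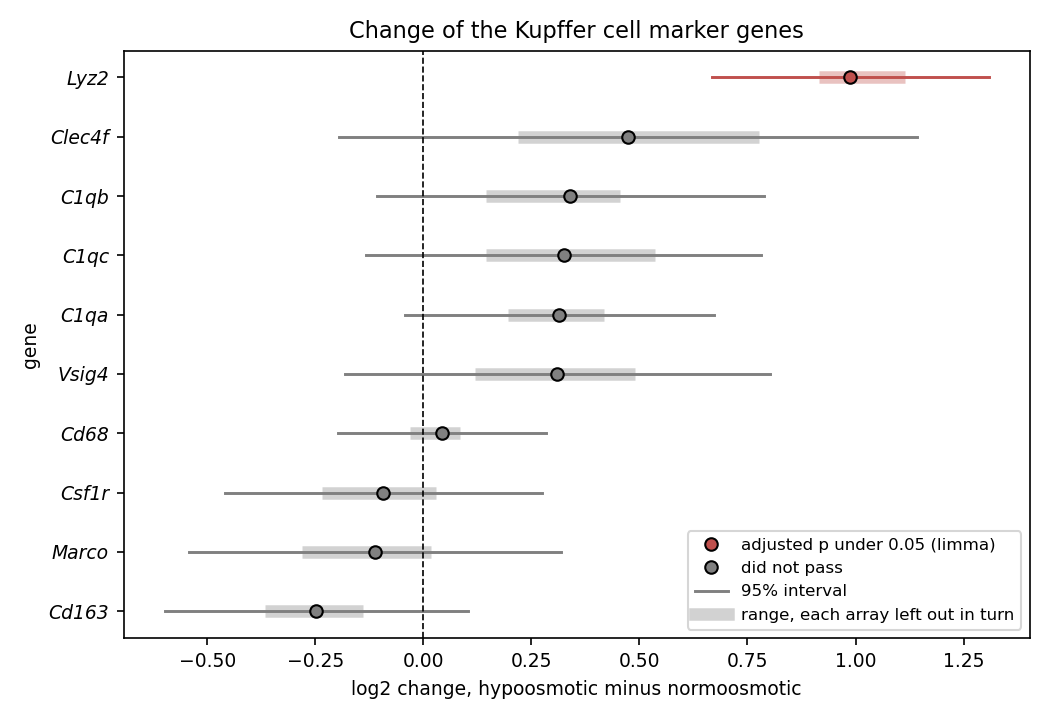
Log2 change (hypoosmotic minus normoosmotic) of each Kupffer cell marker gene, with its 95% interval (thin line) and the range of the change with each array left out in turn (thick band). The interval lies above 0 for Lyz2 (0.67 to 1.31) and includes 0 for the other 9 genes.

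The markers other than Lyz2 moved together from array to array within a group. For each of these 9 genes hypoosmotic replicate 2 was the highest hypoosmotic array, and hypoosmotic replicate 4 was the lowest for 7 of them. In the normoosmotic group, replicate 1 was highest for 6 and replicate 3 lowest for 6 of the 9. The mean of the 9 was 6.53, 7.08, 6.60 and 6.23 in hypoosmotic replicates 1 to 4, against 6.67, 6.49, 6.17 and 6.51 in normoosmotic replicates 1 to 4. The spread within the hypoosmotic group thus enclosed the whole normoosmotic range apart from replicate 3.

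Pearson correlations of the deviations from the group means describe this over 8 arrays. They are given with no p, since the genes share the same arrays. Among the 8 markers other than Lyz2 and Cd163 the 28 pairs had a median correlation of 0.818 and a range of 0.379 to 0.985, highest for Marco with C1qa. Cd163 correlated with these 8 at 0.143 to 0.584. Lyz2 did not follow the others, with correlations of -0.508 to 0.297, and hypoosmotic replicate 4, the lowest array for most markers, was its highest. Without hypoosmotic replicates 2 and 4 the median over the 28 pairs was 0.476, with a range of -0.551 to 0.994. These arrays were the highest and the lowest hypoosmotic ones for most of these markers. Leaving them out lowers such correlations whatever their source, so no conclusion is drawn from the lower median.

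**Figure D3:**
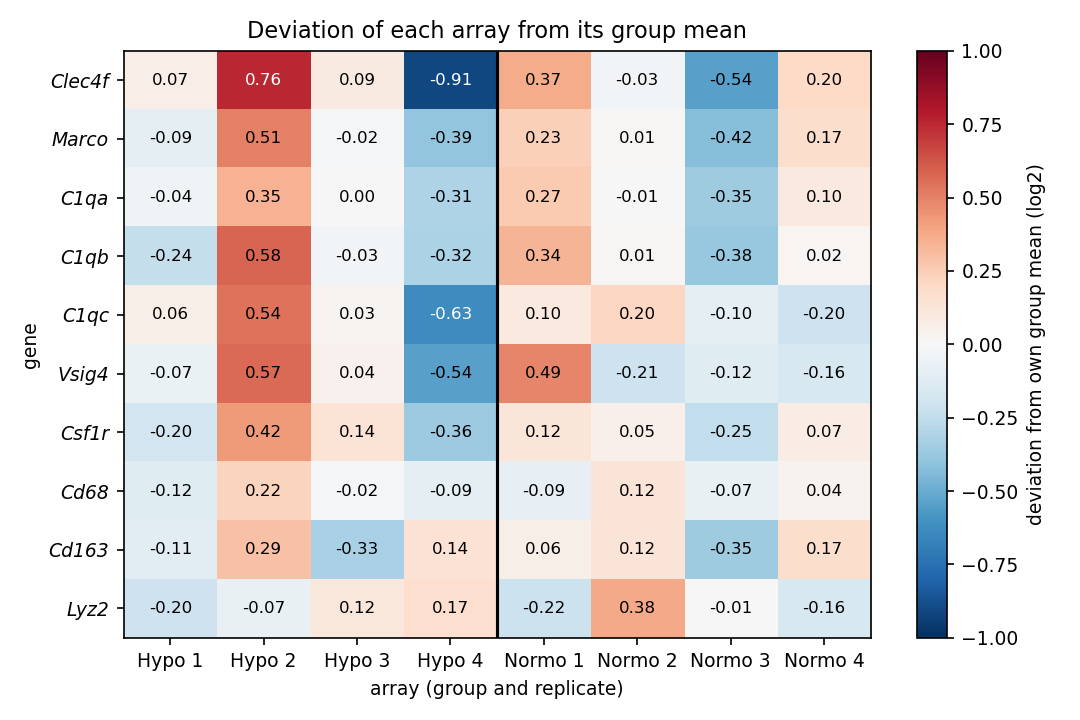
Deviation of each array from its own group mean (log2) for the 10 Kupffer cell marker genes, with hypoosmotic replicates left and normoosmotic replicates right of the black line. Hypoosmotic replicate 2 is above its group mean for 9 genes, and Lyz2, in the bottom row, departs from the pattern of the others.

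The genes outside the set most like the markers were found by the correlation of their deviations with the mean standardised deviation of the 10 markers, over 8 arrays and 6464 genes with a mean of at least 5. The closest were Myct1 (0.977), Tfec (0.976), Aif1 (0.965), Nipsnap1 (0.965), Gzmb (0.959), Lcp1 (0.958), Anpep (0.957) and Cat (0.955). Tfec, a transcription factor of the MiT family expressed in macrophages, and Aif1, the macrophage protein Iba1, also stand in the lists of macrophage genes below. Gzmb stands in the list of T and natural killer cells, and the rest of the 8, Myct1 included, stand in none of the lists. The 8 are the highest of 6464 genes, over only 8 arrays. Likeness to the markers alone therefore does not mark a gene as one of macrophages. None of the 8 passed the test between the groups (limma, adjusted p 0.154 to 0.995).

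Of 14 other macrophage genes measured, 1 rose and 0 fell, with a median change of 0.16. Over all genes 2.45% were higher and 4.61% lower, the shares to set beside this and the list counts below. An unadjusted p under 0.05 (limma) was found for 2 of the 14, against 20.7% of all genes. The gene that rose was Folr2, a folate receptor of resident macrophages. It read 5.73, 6.44, 5.66 and 6.01 in hypoosmotic replicates 1 to 4, against 5.53, 5.37, 5.04 and 5.34 in normoosmotic replicates 1 to 4. The groups did not overlap, and the change was 0.64 ± 0.17 (SE, adjusted p = 0.0495, limma). With each array left out in turn it passed in 1 of 8 fits, at 0.0349 to 0.140, and it missed the threshold at 0.0792 after centring each array on its median. The highest of these values came without normoosmotic replicate 3. The endotoxin coreceptor gene Cd14 differed by 0.42 ± 0.16 (adjusted p = 0.153), the lysosomal Laptm5 by 0.32 ± 0.15 (0.261) and the adaptor Tyrobp by 0.32 ± 0.27 (0.587), none of which passed. Without hypoosmotic replicate 4, Laptm5 passed (0.0290).

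Of 12 transcription factors of macrophages, 0 rose and 1 fell (2.45% and 4.61% of all genes), with a median change of -0.15. An unadjusted p under 0.05 (limma) was found for 1 of the 12, against 20.7% of all genes. Irf8, which is needed for the monocyte and macrophage lineage, averaged 6.89 ± 0.42 in hypoosmotic and 7.59 ± 0.10 in normoosmotic livers (SD, n = 4 each), with no overlap of the groups. Its adjusted p was 0.0407 (limma), and it passed in 2 of 8 fits without 1 array (0.0240 to 0.100, highest without normoosmotic replicate 4). Spi1, the gene of PU.1, had a change of 0.22 ± 0.14 (adjusted p = 0.450). Id3, a factor of Kupffer cell identity in mice, had one of 0.29 ± 0.16 (0.356), and Cebpb one of -0.23 ± 0.14 (0.408).

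For Csf1r, the ligands and signalling genes were examined beside the receptor. Of 12 measured genes for colony-stimulating factors, their receptors and signalling, 0 rose and 1 fell (2.45% and 4.61% of all genes). Their median change was -0.10. An unadjusted p under 0.05 (limma) was found for 3 of the 12, against 20.7% of all genes. The gene that fell was Csf2, the cytokine GM-CSF, at 7.15, 7.16, 6.76 and 6.69 in hypoosmotic replicates 1 to 4, against 7.89, 7.90, 8.58 and 8.36 in normoosmotic replicates 1 to 4. It was 2.37-fold lower with no overlap of the groups, and it passed with each array left out (limma adjusted p = 0.00454, and 0.00919 to 0.0195). The guanine nucleotide exchange factor gene Sos1 differed by -0.34 ± 0.09 (adjusted p = 0.0541). The GM-CSF receptor genes Csf2ra and Csf2rb had changes of 0.31 ± 0.13 (0.184) and -0.43 ± 0.23 (0.330). After centring each array on its median, Sos1 passed as well, and 2 genes of the list fell.

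Of 13 measured cytokine and related genes that activated macrophages express, 0 rose and 3 fell (2.45% and 4.61% of all genes). Their median change was -0.29. An unadjusted p under 0.05 (limma) was found for 5 of the 13, against 20.7% of all genes. Interleukin 1 alpha, Il1a, was 9.64, 9.75, 9.37 and 9.11 in hypoosmotic replicates 1 to 4, against 10.49, 10.28, 10.27 and 10.61 in normoosmotic replicates 1 to 4. It was 1.93-fold lower with no overlap (limma adjusted p = 0.00662) and passed with each array left out. Il1b read 9.03, 9.47, 7.60 and 8.05 in hypoosmotic replicates 1 to 4, against 10.38, 9.79, 9.42 and 10.40 in normoosmotic replicates 1 to 4, with hypoosmotic replicate 2 above normoosmotic replicate 3. It fell by 1.46 ± 0.37 (adjusted p = 0.0397) and passed in 2 of 8 fits without 1 array (0.0222 to 0.110, highest without normoosmotic replicate 4), and not with robust variances and an intensity trend (0.0842). The chemokine gene Cxcl2 fell by 0.95 ± 0.25 (adjusted p = 0.0470) and passed in 1 of 8 (0.0139 to 0.118, highest without normoosmotic replicate 2), and not with robust variances and an intensity trend (0.0596). After median centring 2 of the 3 passed. For Cxcl1 the change was -0.37 ± 0.14 (adjusted p = 0.149).

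C1q acts at the head of the complement cascade, whose later proteins come mainly from hepatocytes. Of 9 measured genes of the classical and lectin pathways, 1 rose and 0 fell (2.45% and 4.61% of all genes). Their median change was 0.12. An unadjusted p under 0.05 (limma) was found for 2 of the 9, against 20.7% of all genes. Mbl1, a mannose-binding lectin, averaged 8.58 ± 0.17 in hypoosmotic and 8.09 ± 0.14 in normoosmotic livers (SD, n = 4 each), with no overlap (limma adjusted p = 0.0350). It passed in 2 of 8 fits without 1 array (0.0209 to 0.0979, highest without normoosmotic replicate 3) and not after median centring (0.0522). The protease gene Masp1 had a change of 0.37 ± 0.13 (adjusted p = 0.108), Mbl2 of 0.29 ± 0.21 (0.508) and Masp2 of 0.16 ± 0.11 (0.514).

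Beside Vsig4, 11 complement receptors and regulators were measured, of which 1 rose and 0 fell (2.45% and 4.61% of all genes). Their median change was -0.02, and 4 of the 11, C5ar1, Itgam, Cd46 and Cr2, were near background. An unadjusted p under 0.05 (limma) was found for 4 of the 11, against 20.7% of all genes. Cd55, which speeds the decay of complement convertases on cell surfaces, was 4.18, 4.35, 4.17 and 3.95 in hypoosmotic replicates 1 to 4, against 3.14, 3.35, 3.10 and 3.28 in normoosmotic replicates 1 to 4. Its groups did not overlap, but the normoosmotic level was close to 3.07, the level taken as near background. It was 1.93-fold higher with an adjusted p of 0.00312 (limma), and it passed with each array left out. The anaphylatoxin receptor gene C3ar1 differed by 0.52 ± 0.20 without passing (adjusted p = 0.165). The differences for the regulator genes Cr1l and Cd46 were -0.31 ± 0.12 (0.152) and -0.31 ± 0.13 (0.209), the last with both means near background.

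The haem and iron pathway that Cd163 feeds gave 0 calls among 12 measured genes (limma), with a median change of 0.23. An unadjusted p under 0.05 was found for 3 of the 12, against 20.7% of all genes. The smallest p-values were those of Blvrb, a biliverdin reductase (0.40 ± 0.12, adjusted p = 0.0690), the haem transporter Slc48a1 (0.61 ± 0.19, 0.0802) and Lrp1, the receptor for haemopexin (0.63 ± 0.21, 0.0970). Without hypoosmotic replicate 4 Blvrb passed (0.0363), and without hypoosmotic replicate 3 Slc48a1 passed (0.0108), while Lrp1 passed without normoosmotic replicate 2 (0.0365) and with the replicate number as a block (0.0416). The ferritin light chain gene Ftl1 had a change of 0.25 ± 0.13 (0.323).

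Markers of the neighbouring cells of the sinusoid were set beside those of Kupffer cells. Of 12 sinusoidal endothelial genes 2 rose and 1 fell (2.45% and 4.61% of all genes), with a median change of 0.34. An unadjusted p under 0.05 (limma) was found for 7 of the 12, against 20.7% of all genes. In 4 of the 12 every hypoosmotic array lay above every normoosmotic one, against 5.32% of all genes. In 1 every hypoosmotic array lay below, against 8.2%. Kdr, a VEGF receptor, rose by 0.66 ± 0.15 (limma adjusted p = 0.0280) and Dnase1l3, a secreted DNase, by 0.82 ± 0.20 (0.0327), while Oit3 fell by 0.46 ± 0.11 on the log2 scale (0.0295). Each depended on the array left out: Kdr passed in 2 of 8 fits (highest 0.0654, without normoosmotic replicate 1), Dnase1l3 in 2 (0.0900, without hypoosmotic replicate 2) and Oit3 in 1 (0.0783, without hypoosmotic replicate 1). After quantile normalization once more Oit3 did not pass (0.0506). Pecam1 had a change of 0.35 ± 0.11 (0.0792), and passed without hypoosmotic replicate 4 (0.0463). The summed linear signal of the endothelial list was 1465 to 2444 over hypoosmotic and 1333 to 1543 over normoosmotic arrays. That of the Kupffer markers was 799 to 1349 and 719 to 980, with overlap in both. Sums did not overlap for the other macrophage genes (2658 to 2846 and 1959 to 2514). Nor did they for the cytokines (9615 to 14550 and 14954 to 15553) or the colony-stimulating factor genes (1242 to 1380 and 1414 to 1565). In such sums the brightest genes weigh most, and they were not tested. Of 10 stellate cell genes 0 passed (limma, 2 at an unadjusted p under 0.05, against 20.7% of all genes), with a median change of 0.21. Among 13 hepatocyte genes 1 rose and 0 fell (2.45% and 4.61% of all genes), with a median of -0.05. An unadjusted p under 0.05 (limma) was found for 1 of the 13, against 20.7% of all genes. The gene that rose was Arg1, the arginase of the urea cycle (0.76 ± 0.16, adjusted p = 0.0183), which also passed with each array left out.

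**Figure D4:**
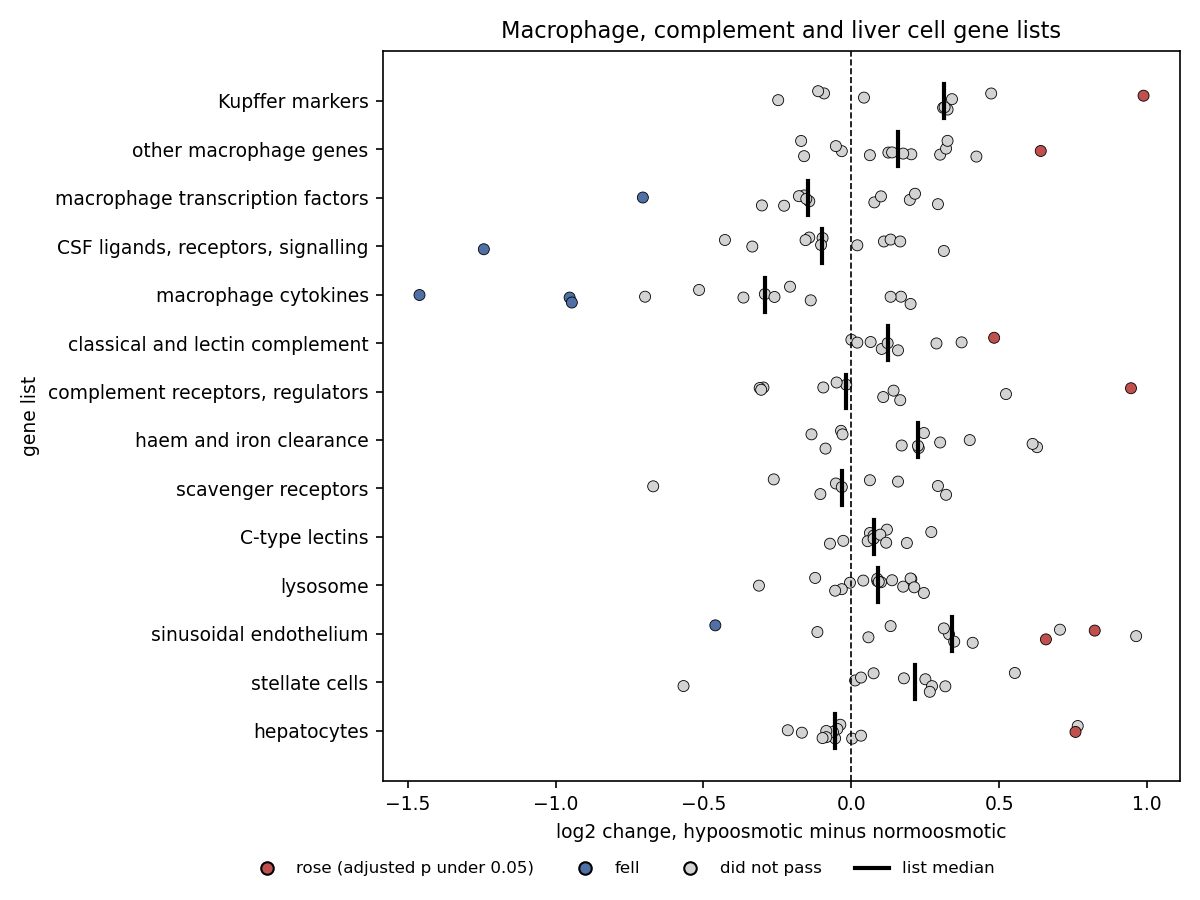
Log2 change (hypoosmotic minus normoosmotic) of each measured gene in 14 lists, one row a list, with the list median as a black bar; red genes rose and blue genes fell at an adjusted p under 0.05, grey genes did not pass. In the row of Kupffer markers Lyz2 is the red gene at 0.99, and in the row of macrophage cytokines 3 genes are blue.

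Genes of other lists followed the joint movement of the markers between arrays to different degrees, again as a description over 8 arrays. The median correlation with the markers was 0.580 for the cytokines, 0.572 for the other macrophage genes, 0.466 for classical and lectin complement and 0.429 for C-type lectins. It was 0.416 for dendritic cells, 0.403 for complement receptors, 0.383 for sinusoidal endothelium, 0.373 for scavenger receptors, 0.363 for haem and iron genes and 0.349 for lysosomal genes. Macrophage transcription factors (0.305) and colony-stimulating factor genes (0.227) lay below these, followed by stellate cells (0.199), hepatocytes (0.198) and T and natural killer cells (0.186). The lowest values were those of bile duct cells (0.145), monocytes (0.130), neutrophils (0.120), red cells and platelets (-0.0154) and B and plasma cells (-0.0477), against 0.0140 over all genes. By their medians, lists of macrophage genes thus stood both above and below lists of other cells. Within a list the genes differed widely. The other macrophage genes ran from -0.167 for Cd14 to 0.965 for Aif1. The macrophage transcription factors ran from -0.422 for Spic, which was near background, to 0.976 for Tfec. A list median therefore does not stand for each of its genes. Near background were 9 of 11 neutrophil genes, 3 of 4 of B and plasma cells and 7 of 11 of T and natural killer cells. The low values of these lists therefore cannot be read as a difference between cell types. Hypoosmotic replicates 2 and 4, the highest and the lowest hypoosmotic arrays for most markers, weigh heavily in these correlations.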

How the data were processed

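The deposited table holds the authors' log2 values for 27596 probe sets on 8 arrays, 4 per group. The submitters' processing notes name RMA, Transcriptome Analysis Console 4.0 and Affymetrix Expression Console without saying what each did. RMA equalises the distributions of arrays, which would hide a shift common to most genes. Names came from the platform annotation (15310 probe sets with 1 symbol), and symbols were updated through RefSeq gene identifiers. The probe set with the highest mean was used where a gene had several (527 genes), which left 14506 genes.

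Groups came from the sample titles. Hypoosmotic and normoosmotic arrays were compared with limma 3.58.1 (lmFit and eBayes) in R 4.3.3, with group as the only term, two-sided, and Benjamini-Hochberg adjustment over all genes at 0.05. The fit was tested on simulated data with 100 changes of each size among 14506 genes. It called 96% of log2 changes of 1 but 28% of changes of 0.5. In the data 1024 genes passed, which makes the adjusted threshold less strict than in the simulation. The share of changes of 0.5 called in the data is therefore not known from it, though such changes can be missed. The 9 markers that did not pass had changes no larger than the 0.47 of Clec4f. Intervals of changes are 95% intervals from the same fit. Python 3.11.15 prepared tables and plots. Alternatives were the replicate number as a block, array weights, robust variances with an intensity trend, median centring, quantile normalization once more, leaving out the 30% dimmest genes, averaging probe sets, testing all probe sets, a minimum fold change of 1.2 and leaving out each array.

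The named genes are the 10 markers, up to 4 genes with the smallest p of a list, 3 cytokine genes and the 8 genes most like the markers; for lists with few calls fewer are printed. Members and lists were chosen with earlier results of these data known. The near-background level and the fit without hypoosmotic replicates 2 and 4 were added later.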

Additional observations from a re-analysis of the deposited data

Results flagged for a closer look

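For 54 genes, each group of 4 arrays was examined for 1 array far from the other 3, by the gap divided by the range. Of 108 groups 5 stood out, and chance gives about 1 in 20. Vsig4 was 7.31 in normoosmotic replicate 1, against 6.61 to 6.70 in the other normoosmotic arrays. C3ar1 was 5.60 in hypoosmotic replicate 2, against 4.88 to 4.98 in the others of that group. Cxcl2 was 10.55 in normoosmotic replicate 2, against 10.17 to 10.22. Arg1 was 8.86 in normoosmotic replicate 4, against 9.42 to 9.50. Myct1 was 5.38 in normoosmotic replicate 3, against 5.73 to 5.77. The number flagged is no larger than chance gives, and no cause was tested.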

How the results depend on the processing

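Of the 10 markers, 1, Lyz2, passed under each alternative run, the replicate block included, and 0 of the other 9 passed under any. Among the 54 genes recomputed, the markers and the named genes, 6 changes turned sign, none of them past the threshold. With 1 array left out these were Marco (-0.28 to 0.018) and Csf1r (-0.23 to 0.029) without hypoosmotic replicate 4, and Cd68 (-0.032 to 0.084) and Aif1 (-0.016 to 0.28) without hypoosmotic replicate 2, Gzmb (-0.30 to 0.072) without hypoosmotic replicate 4 or normoosmotic replicate 2, and Myct1 (-0.18 to 0.13) with any array left out except hypoosmotic replicate 2 and normoosmotic replicate 3. Myct1 was also 0.037 with array weights and 0.0083 after quantile normalization once more. Against a minimum fold change of 1.2, Lyz2, Csf2 and Cd55 passed and no other named gene did. Genes near the threshold lost or gained a call under other alternatives. With all probe sets tested Folr2 (limma adjusted p = 0.0680), Irf8 (0.0565), Il1b (0.0543) and Cxcl2 (0.0640) no longer passed, nor did Cxcl2 after median centring (0.0532). Sos1 passed without the dimmest genes (0.0444), Cd36 with the replicate block (0.0445), and Blvrb and Slc48a1 with array weights (0.0398 and 0.0306) and quantile normalization once more (0.0357 and 0.0429), as did Pecam1 with the last (0.0427). Over all genes 1024 differed, 83 of them against a minimum fold change of 1.2, a stricter test, and 464 to 1050 with 1 array left out, where fewer arrays also lower the power. The count was 626, 673, 464 and 562 without normoosmotic replicates 1 to 4, and 544 without hypoosmotic replicate 2. Of the calls, 65.3% were falls (355 higher, 669 lower), and 75.8% after median centring (234 higher, 732 lower). The labels state no pairing, so the replicate numbers were not taken as pairs. Deviations of same-numbered arrays had correlations across genes of 0.00682, 0.257, 0.115 and 0.0626, all above 0. Those of differently numbered arrays ran from -0.210 to 0.154, on both sides of 0. Whether the numbers mark pairs was not tested. With the replicate block 1027 genes differed and Lyz2 kept its call (limma adjusted p = 0.0106). No detection calls were used, so the limit of low signals is known only roughly.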

Other observations

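Several other gene lists gave no calls. Over all genes, 20.7% had an unadjusted p under 0.05, the share to set beside the counts of that kind here. Of 9 measured scavenger receptor genes 0 passed (limma, 3 at an unadjusted p under 0.05), with a median change of -0.03. The fatty acid and lipoprotein receptor gene Cd36 had no overlap between groups, at 7.26 ± 0.47 in hypoosmotic and 7.93 ± 0.14 in normoosmotic livers (SD, n = 4 each), with an adjusted p of 0.0727 (limma) that became 0.0246 without hypoosmotic replicate 3 and 0.0307 with array weights. Scarb2, a lysosomal membrane receptor, had a change of 0.29 ± 0.12 (SE, adjusted p = 0.206). Of 11 C-type lectin genes 0 passed (limma, 0 at an unadjusted p under 0.05), and 4 of them were near background. Of 16 lysosomal genes 0 passed (limma, 1 at an unadjusted p under 0.05), with a median change of 0.09. The cathepsin gene Ctsl was 11.36 ± 0.06 in hypoosmotic and 11.68 ± 0.12 in normoosmotic livers, with no overlap and an adjusted p of 0.0895.

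Genes of T and natural killer cells (11 measured), B and plasma cells (4), dendritic cells (6), bile duct cells (5) and red cells and platelets (6) gave 0 calls each (limma, 0 at an unadjusted p under 0.05 in each list). Near background were 7 of the 11, 3 of the 4, 2 of the 6, 1 of the 5 and 2 of the 6.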
